A study of Mus musculus with 6 samples.

Results

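The genes described here encode 10 secreted or membrane-bound cytokines: 5 ligands of the IL-6 family (Il6, Il11, Lif, Clcf1 and Ctf1) and 5 growth factors of blood cells (Csf1, Csf2, Csf3, Il34 and Kitl). They were chosen by name, with earlier results of these data known, and all 10 were found among the 49315 genes counted. Of these 10, 9 had enough reads to be tested, and Csf2 did not. Messenger RNA was counted in 6 lines of mouse embryo fibroblasts (C57BL/6 strain, passage 4, untreated, grown in DMEM with 10% serum), each line derived from a different embryo. All 6 lines lack p53 (p53-/-). The 3 SG lines (SG1, SG2 and SG3) are in addition homozygous for a knock-in MDMX allele with the substitutions W201S and W202G (MDMXSG/SG), which disrupts binding of MDMX to the kinase CK1-alpha, and the 3 WT lines (WT3, WT9 and WT11) carry wild-type MDMX (MDMXWT/WT). The comparison therefore asks which transcripts differ with the MDMX mutation in cells without p53, and says nothing of cells that have p53. Each line is 1 culture from 1 embryo, so the spread between lines is the spread between embryos and their cultures.

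Cytokines of the IL-6 family are bundles of helices that signal through the shared receptor chain gp130 (gene Il6st). IL-6 and IL-11 bring a private alpha receptor to a pair of gp130 chains, while LIF, cardiotrophin-1 (Ctf1) and cardiotrophin-like cytokine (Clcf1) join gp130 to the LIF receptor. Receptor-bound JAK kinases then phosphorylate STAT3, and SOCS3 shuts the signal down. The colony-stimulating factors act on other cells: CSF1 and IL-34 share the receptor CSF1R and keep macrophages alive, CSF2 and CSF3 drive granulocyte and macrophage production, and stem cell factor (Kitl) feeds mast cells, melanocytes, germ cells and blood progenitors through KIT. Fibroblasts are a classical source of several of these factors, and many of them are induced by NF-kB and AP-1 after injury or infection.

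Csf1, Il6 and the cytokines with an AU-rich tail are shown first as sequence. The promoter stretch of Csf1 is given because Csf1 was the only member whose level passed the test between genotypes, and that of Il6 because Il6 is the textbook inducible member and lay near the bottom of the range in these untreated cells. Both stretches are the 250 bases before the start site in RefSeq (GRCm38.p6), written 5′ to 3′ along the gene, Csf1 from chr3:107760470-107760719 on the minus strand and Il6 from chr5:30012864-30013113 on the plus strand. Capitals mark matches to GGGA and CC with any 4 bases between them, a loose form of the NF-kB site, and to TGANTCA, the AP-1 site.
Csf1: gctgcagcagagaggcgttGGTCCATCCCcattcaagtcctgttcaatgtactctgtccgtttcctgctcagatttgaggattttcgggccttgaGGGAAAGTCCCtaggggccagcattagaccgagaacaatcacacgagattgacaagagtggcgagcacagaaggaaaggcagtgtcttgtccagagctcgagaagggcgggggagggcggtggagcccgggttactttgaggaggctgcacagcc
Il6: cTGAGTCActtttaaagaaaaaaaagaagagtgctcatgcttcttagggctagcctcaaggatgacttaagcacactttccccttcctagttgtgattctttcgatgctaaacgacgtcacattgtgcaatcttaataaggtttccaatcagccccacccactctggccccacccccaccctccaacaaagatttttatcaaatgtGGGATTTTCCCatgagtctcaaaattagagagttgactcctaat
Matches were sought on both strands, and a stretch that reads as a match on both strands overlaps itself. Csf1 held GGGAAAGTCC at 155 bases before the start, overlapped by GGAAAGTCCC on the other strand, and a further match 231 bases before it. Il6 held GGGATTTTCC at 44 bases before the start, overlapped by GGATTTTCCC, and TGAGTCA at 249 bases. Kitl and Lif also held the NF-kB letters, and Lif and 1 of the 2 Il11 start sites also held TGANTCA, so the letters were found in members that differed widely in level. Among all 32851 promoter stretches of this length, 17.6% held the NF-kB letters and 6.75% TGANTCA. The letters TGACGTCA (cyclic AMP response element, in 1.55% of all stretches) were in none of the stretches searched, and TATAAA (12.4%) was in that of Kitl, 25 bases before the start. RefSeq promoters were found for Csf1, Il6, Il11, Ctf1, Kitl, Lif and Csf2.

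Messages of inducible cytokines often carry repeats of ATTTA near their end, where proteins such as TTP (gene Zfp36) bind and speed decay. The longest annotated 3′ untranslated region of each member was searched (GENCODE M21, GRCm38, a search added after levels had been seen). The longer motif TTATTTATT was in 4 members, and for each a window of 30 bases with the most copies is shown with ATTTA in capitals.
Csf2: tttaaatATTTATTTATTTATTTATTTAtt
Il11: ttaaaaccagatcttATTTATTTATTTAtt
Clcf1: atATTTATTTAtttggagatgttATTTAtt
Lif: gaagcaaaggggcctttATTTAttATTTAa
The window of Csf2 lies at chr11:54247327-54247356 (minus strand), that of Il11 at chr7:4773504-4773533 (minus strand), that of Clcf1 at chr19:4223404-4223433 (plus strand) and that of Lif at chr11:4272034-4272063 (plus strand). Csf2 was the densest, with 9 ATTTA and 4 TTATTTATT in 317 bases. Of 1911 regions of like length, 2.41% held TTATTTATT. Il11 held 5 TTATTTATT in 1194 bases, where 8.37% of regions of like length held any. Il6 and Csf3 held 10 and 6 ATTTA without the longer motif, Kitl 14 in its long region of 4435 bases, and Csf1 4 in 2111. Il34 held 1 and Ctf1 none. The members with TTATTTATT thus included Csf2, at the detection limit, and Lif, Clcf1 and Il11, which were readily detected. Counted as ATTTA per kilobase, the low-level members Csf3 (8.97) and Il6 (6.00) lay above Lif (2.20) and Clcf1 (4.34), with Il11 at 8.38.

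Per kilobase of exon, Csf1 stood far above the other members in every line. Levels are compared between genes as RPKM, that is CPM (the usual count scaled to library size, here after TMM) divided by the exon length in the files. Csf1 averaged 54.6 ± 7.09 RPKM (SD, n = 6 lines), above 94.3% of tested genes, and was 11.4-fold the next member, Lif. Lif (4.78 ± 0.247 RPKM) and Clcf1 (4.51 ± 0.294 RPKM) followed with ranges that overlapped, Lif being higher in 5 of 6 lines. Il11 (2.33 ± 0.219 RPKM), Ctf1 (2.08 ± 0.164 RPKM) and Kitl (1.93 ± 0.455 RPKM) formed a group whose neighbours also overlapped. Below them lay Il34 (0.425 ± 0.123 RPKM), Csf3 (0.198 ± 0.0753 RPKM) and Il6 (0.155 ± 0.0538 RPKM), again with overlapping neighbours. Csf2, the granulocyte and macrophage factor, was last, with 9 reads in all 6 lines together. Csf1 made up between 73.5% and 80.5% of the summed RPKM of the 10 genes in a line. Of the 2 ligands of CSF1R, Csf1 was 129-fold above Il34 in mean RPKM.

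**Figure D1:**
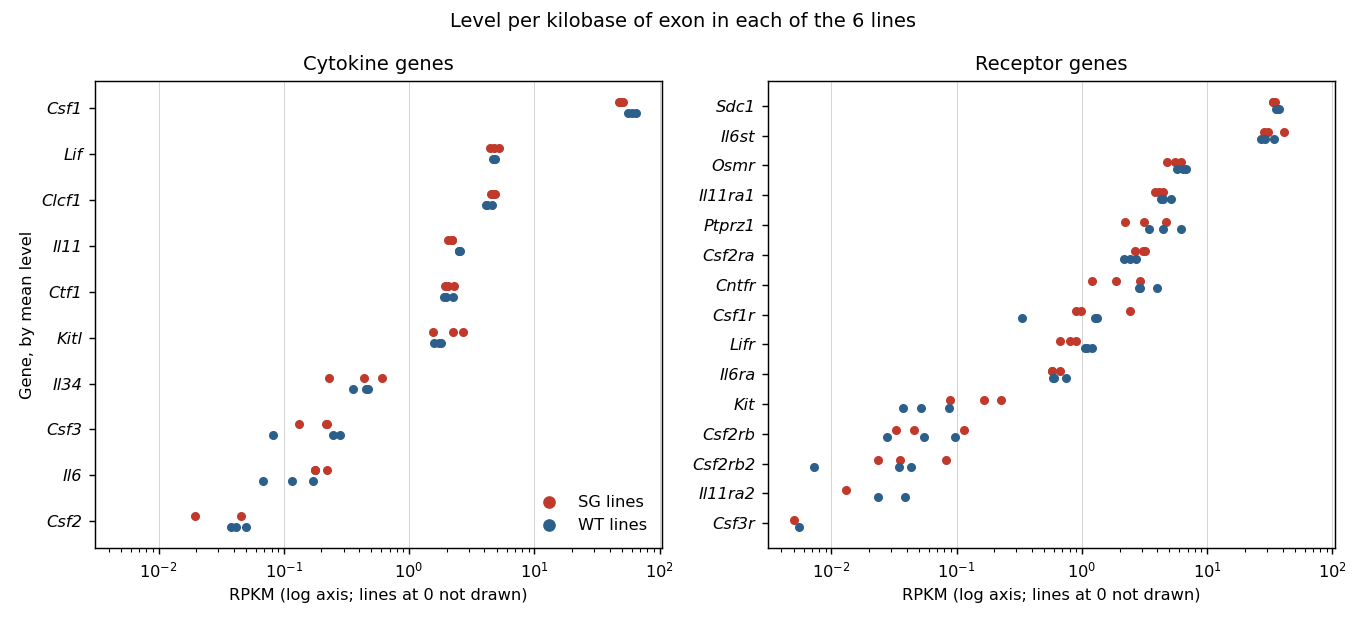
RPKM (log axis) of the 10 cytokine genes (left) and of 15 receptor genes (right), 1 point per line, SG red and WT blue, with lines at 0 not drawn. Csf1 lies apart at the top on the left, Csf2 and the receptor Csf3r at the bottom of their panels.

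The libraries held between 49317925 and 65457242 counted reads, so a gene with 0 reads could still be present at up to 0.0608 CPM in the smallest library, a limit that covers counting error only. Fibroblast markers were abundant, with 9 markers summing to between 15016 and 17928 CPM. Of 6 neutrophil markers S100a9 and Elane were at 0 in every line, and the list summed to between 0.188 and 0.4997 CPM. The 5 T lymphocyte markers summed to between 0.137 and 1.05 CPM. Endothelial and epithelial markers were higher. The 5 endothelial markers summed to 52.7 to 72.4 CPM in SG and 39.2 to 54.1 CPM in WT. The 6 epithelial markers summed to 14.5 to 27.8 CPM in SG and 9.58 to 16.8 CPM in WT. Which cells these transcripts came from was not tested. A list of 6 mast cell and progenitor markers, Kit among them, summed to between 42.3 and 48.3 CPM in SG and between 25.2 and 34.6 CPM in WT, most of it Cd34, which rose in SG (log2 fold change 0.58, adjusted p = 0.0454), while Mcpt4 and Fcer1a were at 0 in every line. Macrophage markers were present at a low level, as given below beside Csf1. In the whole comparison of SG with WT, 306 of 16068 tested genes (1.90%) passed the threshold of an adjusted p of 0.05 (edgeR quasi-likelihood test, Benjamini-Hochberg over all tested genes). This count was 3 without SG2, 24 without WT3 and 29 without WT11, and 579 without SG1 and 460 without WT9. Each log2 fold change below sets SG against WT (negative where SG is lower) and comes with its standard error (SE), and each adjusted p is from this fit.

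Among the 5 IL-6 family ligands none passed the threshold. Il11, a fibroblast cytokine that acts back on fibroblasts in fibrosis, came nearest (chromosome 7, 4772373 to 4782857, minus strand, ENSMUSG00000004371). It was at 4.10, 4.40 and 4.43 CPM in SG1, SG2 and SG3 and at 5.0, 5.08 and 5.16 CPM in WT3, WT9 and WT11. Every SG line lay below every WT line, and the lines of a genotype were close together. The log2 fold change was -0.24 (SE 0.09, 95% interval -0.45 to -0.03), with an unadjusted p of 0.0326 in edgeR and an adjusted p of 0.262. The estimate ranged from -0.26 to -0.20 over 15 alternative fits and did not pass in any of them.

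Il6, the acute-phase cytokine, had few reads (chromosome 5, 30013114 to 30019981, plus strand, ENSMUSG00000025746). It had 24, 34 and 25 reads in SG1, SG2 and SG3, or 0.435, 0.533 and 0.428 CPM. In WT3, WT9 and WT11 it had 14, 27 and 10 reads, or 0.280, 0.413 and 0.167 CPM. The SG lines lay above the WT lines, but only narrowly, with WT9 next to SG3. The exact 95% Poisson interval of the 10 reads in WT11 reached from 4.8 to 18.4 and that of the 27 reads in WT9 from 17.8 to 39.3 reads. The log2 fold change was 0.69 (SE 0.34, 95% interval -0.10 to 1.48, adjusted p = 0.399), and it was 0.41 without WT11 and 1.07 without WT9. A difference of this size was not resolved at this depth.

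Lif, which holds mouse embryonic stem cells undifferentiated and is made by feeder fibroblasts, was at 19.4, 22.6 and 20.9 CPM in SG1, SG2 and SG3 and at 20.6, 20.2 and 21.2 CPM in WT3, WT9 and WT11. The highest and the lowest line were both SG. Its log2 fold change was 0.02 (SE 0.06, 95% interval -0.13 to 0.17, adjusted p = 0.923). Clcf1, a neurotrophic and B cell-stimulating member of the family, was at 17.4, 18.2 and 16.8 CPM in SG1, SG2 and SG3 and at 17.1, 15.4 and 15.5 CPM in WT3, WT9 and WT11. Its genotypes overlapped through WT3 (log2 fold change 0.13, SE 0.06, 95% interval -0.02 to 0.28, adjusted p = 0.417). Ctf1, a cardiotrophic member of the family, was at 4.20, 3.75 and 3.56 CPM in the SG lines and 4.10, 3.62 and 3.48 CPM in the WT lines, in the same line order as above. SG1 and WT3 were the high lines of their genotypes, and the genotypes overlapped almost fully (log2 fold change 0.04, SE 0.12, 95% interval -0.24 to 0.32, adjusted p = 0.912). Ctf1 shares exon sequence with Ctf2 on the opposite strand, and the sources used here do not give the strand setting of the counts, so its reads could include some of Ctf2, which had between 0.0611 and 0.308 CPM.

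**Figure D2:**
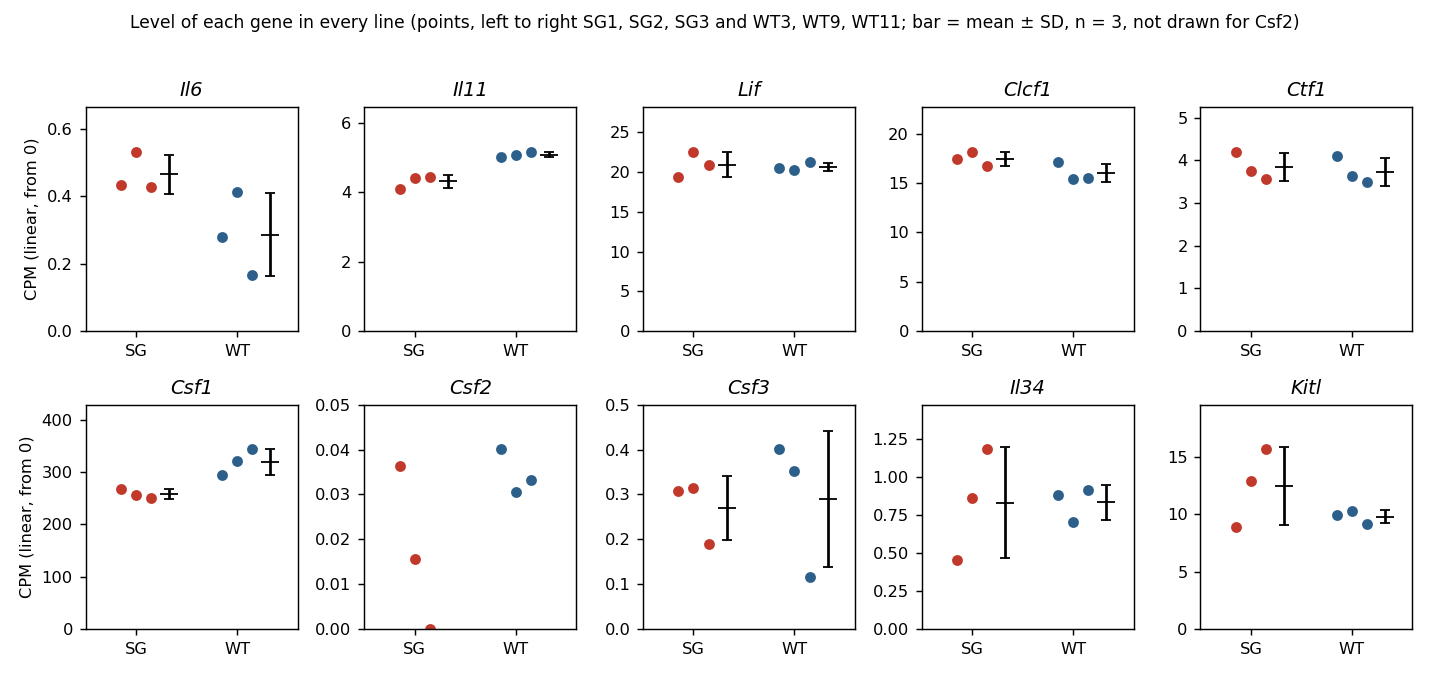
CPM of each of the 10 genes on a linear axis from 0, with points for SG1, SG2, SG3 (red) and WT3, WT9, WT11 (blue) from left to right and the mean ± SD (n = 3) in black, not drawn for Csf2. The groups do not overlap for Csf1 and Il11 (SG lower) and for Il6 (SG higher).

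Csf1, the macrophage growth factor, was the single member past the threshold (chromosome 3, 107741048 to 107760469, minus strand, ENSMUSG00000014599). It was at 268, 256 and 250 CPM in SG1, SG2 and SG3 and at 293, 321 and 343 CPM in WT3, WT9 and WT11. Every SG line lay below every WT line, with the SG lines close together and the WT lines more spread. The means were 258 ± 9.03 CPM (SG) and 319 ± 24.9 CPM (WT) (SD, n = 3), so Csf1 fell 1.24-fold in SG (log2 fold change -0.31, SE 0.06, 95% interval -0.44 to -0.17, adjusted p = 0.0493). In bulk RNA, fewer cells that express a gene and less of its RNA per cell cannot be told apart. With 14599 to 20967 reads per line, counting error was negligible beside the spread between lines.

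The Csf1 call stood at the edge of the threshold, since Csf1 ranked 304 by p among the 306 genes called. The estimate stayed between -0.36 and -0.25 over 15 alternative fits, of which 7 passed, with adjusted p from 0.000132 (DESeq2) to 0.202 (without SG2). It did not pass without SG2, SG3, WT3, WT9 or WT11, nor with RLE scaling (adjusted p = 0.0514). Gene-level counts do not separate the secreted from the membrane-bound form of CSF1, which differ by splicing.

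Of the 9 tested members 1 passed, beside 1.90% of all tested genes (1.10% lower in SG and 0.809% higher), and 1 call among so few genes gives no measure of a rate. The genotypes did not overlap in 3 of 9 members against 21.2% of all tested genes. Of these, 2 members (Csf1 and Il11) had SG below WT, against 11.2% of all tested genes, and 1 (Il6) had SG above WT, against 10.0%. The median log2 fold change of the 9 was 0.02, beside 0.00 over all tested genes, and 6 of the 9 lay above 0.

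Kitl, or stem cell factor, showed the widest spread among the well-detected members, and the spread was within SG (chromosome 10, 100015630 to 100100413, plus strand, ENSMUSG00000019966). It was at 8.90, 12.9 and 15.6 CPM in SG1, SG2 and SG3 and at 9.92, 10.3 and 9.18 CPM in WT3, WT9 and WT11. SG2 and SG3 lay above all WT lines and SG1 below all of them. Its log2 fold change was 0.35 (SE 0.18, 95% interval -0.08 to 0.77, adjusted p = 0.425). Without SG1 it passed (log2 fold change 0.54, adjusted p = 0.0401), as it did without SG1 and WT9, the lines with abundant X-inactivation RNA Xist (log2 fold change 0.58, adjusted p = 0.0492). Without SG3 the log2 fold change was 0.15, so the estimate depends on which SG lines are included.

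Il34, the other ligand of CSF1R, known from skin and brain, had 25, 55 and 69 reads in SG1, SG2 and SG3, or 0.453, 0.862 and 1.18 CPM. In WT3, WT9 and WT11 it had 44, 46 and 55 reads, or 0.880, 0.703 and 0.916 CPM. SG1 was the lowest and SG3 the highest line, as for Kitl, and the WT lines lay between them (log2 fold change 0.01, SE 0.33, 95% interval -0.77 to 0.78, adjusted p = 0.996). Exons of Gm15894 and Gm15895 overlap Il34 on the opposite strand, which bears on its counts in the same way as for Ctf1. Csf3, the neutrophil growth factor, had 17, 20 and 11 reads in SG1, SG2 and SG3, or 0.308, 0.313 and 0.188 CPM. In WT3, WT9 and WT11 it had 20, 23 and 7 reads, or 0.400, 0.352 and 0.117 CPM. WT11 was low, as for Il6, and the genotypes overlapped (log2 fold change -0.09, SE 0.46, 95% interval -1.15 to 0.97, adjusted p = 0.953). Csf2 had 2, 1 and 0 reads in SG1, SG2 and SG3 and 2 reads in each WT line. These counts are at or under the 3 reads that a count of 0 allows, so no ratio is given.

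**Figure D3:**
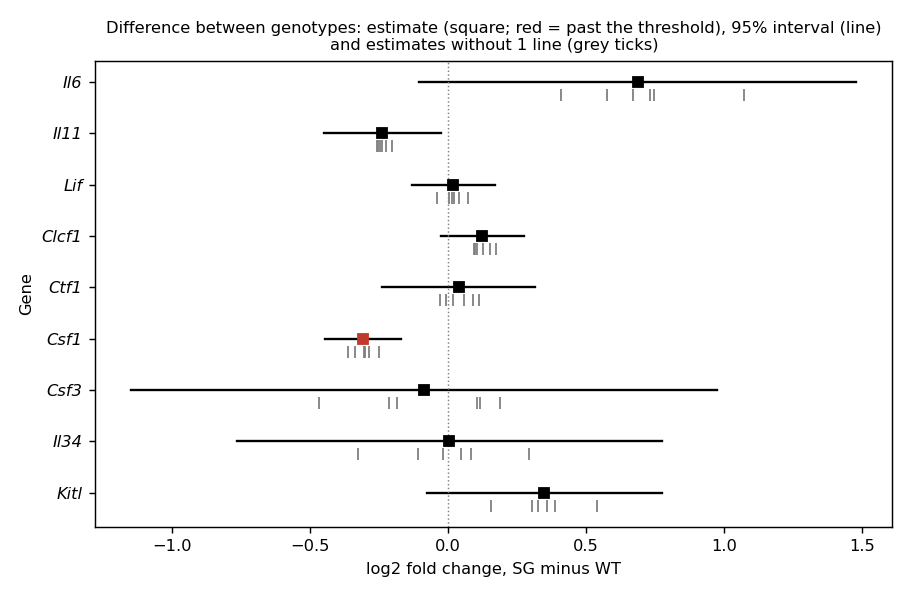
Log2 fold change (SG minus WT) of the 9 tested genes as squares, red where the threshold was passed, with 95% intervals as lines and the 6 estimates without 1 line as grey ticks. The interval of Csf1 runs from -0.44 to -0.17, and those of Csf3 (-1.15 to 0.97) and Il34 (-0.77 to 0.78) span both directions widely.

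Variation between lines beyond counting error differed among the members. The biological coefficient of variation estimated by edgeR was 0.0655 for Csf1, 0.0728 for Lif, 0.0742 for Clcf1, 0.0941 for Il11 and 0.113 for Ctf1, beside a median of 0.0887 over all tested genes. It was 0.166 for Kitl, 0.217 for Il6, 0.267 for Il34 and 0.312 for Csf3, the last above 96.2% of tested genes. The 3 highest values thus belonged to the members with the fewest reads. No single line was high for all members. Among the 9 tested members SG1 was the lowest line for 4 (Il11, Lif, Il34, Kitl) and the highest for Ctf1, while WT11 was the lowest for 3 (Il6, Ctf1, Csf3) and the highest for Csf1 and Il11.

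Macrophage transcripts also varied between lines, and their extremes were the reverse of those of Csf1. The summed level of 10 macrophage markers was 28.2, 32.1 and 66.2 CPM in SG1, SG2 and SG3 and 35.1, 33.6 and 12.5 CPM in WT3, WT9 and WT11. SG3, with the lowest Csf1, was highest, WT11, with the highest Csf1, was lowest, and the other 4 lines lay between 28.2 and 35.1 CPM. In those 4 the genotypes were not reversed: SG1 and SG2 lay below WT3 and WT9 both for Csf1 and for the marker sum. Of the 9 markers tested none passed the threshold, and none of the 10 was at 0 in every line. Csf1r itself, the receptor and one of these markers, was at 4.42, 4.81 and 11.8 CPM in the SG lines and 6.18, 6.45 and 1.63 CPM in the WT lines. Exons of Csf1r overlap Hmgxb3 on the opposite strand, which bears on its counts in the same way as for Ctf1. The part of macrophage RNA in the Csf1 difference was not tested. Of the 9 fibroblast markers 1 passed the threshold, Thy1, which fell in SG (280 ± 25.5 CPM against 460 ± 19.0 CPM, a log2 fold change of -0.72 with SE 0.07, adjusted p = 0.00802). Postn and Pdgfrb also had every SG line below every WT line but missed the threshold, Postn with a log2 fold change of -0.68 (adjusted p = 0.0704) and Pdgfrb with -0.35 (adjusted p = 0.174). Such a separation with SG lower was seen in 11.2% of all tested genes. The sum of all 9 markers overlapped, at 15016 to 17928 CPM in SG and 16582 to 17055 CPM in WT. The part of these fibroblast markers in the Csf1 difference was not tested either.

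**Figure D4:**
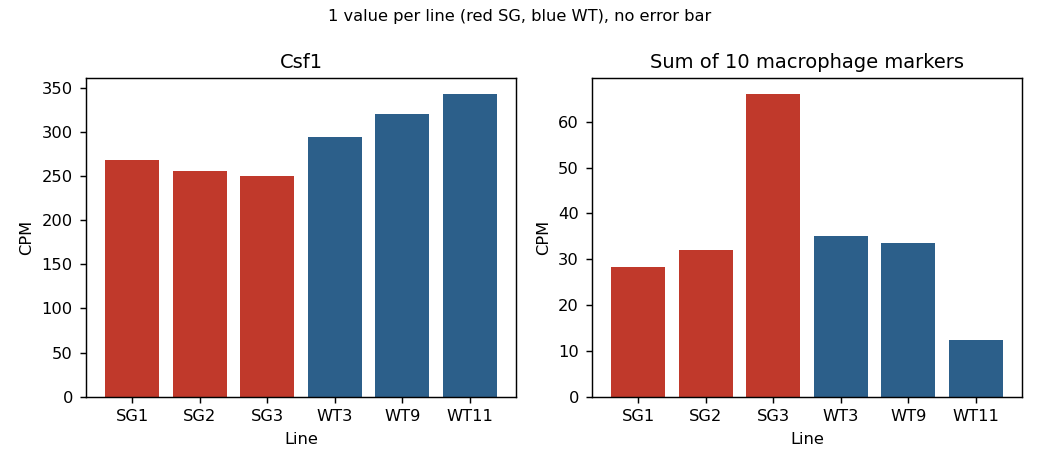
CPM of Csf1 (left) and the summed CPM of 10 macrophage markers (right) in each line, SG red and WT blue, bars from 0 and 1 value per line. Csf1 is lowest in SG3 (250) and highest in WT11 (343), the marker sum highest in SG3 (66.2) and lowest in WT11 (12.5). SG1 and SG2 lie below WT3 and WT9 in both panels.

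The genes whose pattern over the 6 lines was most like that of Csf1 were Plcl2, Lrfn1 and Pmm1, by the root mean square difference of centred log2 CPM among 11790 protein-coding genes. The differences were 0.0300 for Plcl2 and Lrfn1 and 0.0373 for Pmm1. None of these 3 passed the threshold (adjusted p = 0.253, 0.262 and 0.0745).

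Most receptors of these ligands were detected as well, without a call between genotypes in the main edgeR fit. Of 15 receptor genes, 12 were tested and 0 passed the threshold in either direction in that fit. An unadjusted p below 0.05 was reached by 5 of them, and by 15.5% of all tested genes. DESeq2, which called 934 genes in all, called Lifr (lower) and Kit (higher). The shared chain Il6st was abundant at 31.9 RPKM (27.1 to 41.2 over lines) and Osmr, the oncostatin M receptor, stood at 5.93 RPKM. Il11ra1, the IL-11 receptor, stood at 4.35 RPKM, whereas Il6ra, the IL-6 receptor, stood at 0.625 RPKM. Exons of Il11ra1 overlap Ccl27a and those of Il6ra overlap Gm42809, both on the opposite strand, so these levels could include reads of the other gene. Csf3r and Il11ra2 were at or near 0, with means of 0.00176 and 0.0125 RPKM.

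Lifr, which serves LIF, cardiotrophin-1 and the Clcf1 product, was at 9.24, 6.86 and 8.32 CPM in SG1, SG2 and SG3 and at 12.4, 10.9 and 11.3 CPM in WT3, WT9 and WT11. All SG lines lay below all WT lines, yet Lifr missed the threshold (log2 fold change -0.51, SE 0.12, adjusted p = 0.0761). Lifr passed in edgeR without a count filter, without SG1, and without SG1 and WT9. Cntfr, the alpha receptor used by the Clcf1 product, was at 8.05, 5.23 and 3.34 CPM in the SG lines and at 7.94, 11.0 and 8.16 CPM in the WT lines, overlapping through SG1 (log2 fold change -0.71, SE 0.29, adjusted p = 0.295). Kit, the receptor of stem cell factor, was at 1.47, 2.02 and 0.787 CPM in the SG lines and at 0.460, 0.780 and 0.333 CPM in the WT lines. SG3 barely exceeded WT9 (log2 fold change 1.43, SE 0.42, adjusted p = 0.146). Kit passed in edgeR without a count filter. The mast cell and progenitor list given above holds Kit itself, and most of its sum is Cd34. That sum was higher in every SG line than in any WT line, with Mcpt4 and Fcer1a at 0. The part of mast cells or progenitors in the Kit values was not tested. Among the other ligands of the family, Osm, Il27 and Il31 had at most 0.05 CPM. Of 7 genes in that list 2 were tested, with 0 calls in edgeR or DESeq2 and 0 at an unadjusted p below 0.05.

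Downstream, 1 of 11 JAK-STAT transducers passed, beside 1.90% of all tested genes. Jak2, the kinase used by several of these receptors, was at 35.9, 34.4 and 36.9 CPM in SG1, SG2 and SG3 and at 42.2, 41.5 and 44.9 CPM in WT3, WT9 and WT11, so it fell 1.20-fold without overlap (log2 fold change -0.26, SE 0.05, adjusted p = 0.0362). Jak1, Stat3, Stat5a and Stat5b also had every SG line below every WT line but missed the threshold, Stat3 with means of 132 ± 7.47 CPM (SG) and 152 ± 3.75 CPM (WT, log2 fold change -0.20, SE 0.05, adjusted p = 0.0826). Stat3 passed, lower in SG, in DESeq2 and in edgeR without a count filter. The 5 of 11 with every SG line below every WT line compare with 11.2% of all tested genes. The median over the list was -0.09 on the log2 scale. Exons of Stat3 and Stat5a overlap on opposite strands, so their counts may share reads. With Stat5b they lie on chromosome 11, and the 5 genes may not be independent of each other.

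Of 20 feedback and STAT3-responsive genes 16 were tested, and 1 passed, beside 1.90% of all tested genes. Il4ra, the receptor chain of IL-4 and IL-13, was at 23.5, 22.7 and 26.2 CPM in the SG lines and 32.5, 31.9 and 38.8 CPM in the WT lines, a fall of 1.42-fold (log2 fold change -0.51, SE 0.09, adjusted p = 0.0362). Exons of Il4ra overlap Gm44876 on the opposite strand, so its counts could include reads of that gene. Socs3, the feedback inhibitor of gp130, was at 9.93, 9.93 and 11.2 CPM in the SG lines and 13.7, 10.7 and 17.0 CPM in the WT lines, overlapping through SG3 and WT9 (log2 fold change -0.41, SE 0.16, adjusted p = 0.253). In this list 13 of 16 had log2 fold changes below 0, against 49.3% of all tested genes, with a median of -0.15. Complement C3 went the other way at a low level, with means of 0.600 ± 0.0742 CPM (SG) and 0.301 ± 0.0349 CPM (WT) (adjusted p = 0.0807). The acute-phase genes Lcn2, Saa3, Hp and Lbp had too few reads to test. The calls of both Jak2 and Il4ra were lost without SG1, SG2, WT3 or WT11, and that of Jak2 also without SG1 and WT9 together.

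**Figure D5:**
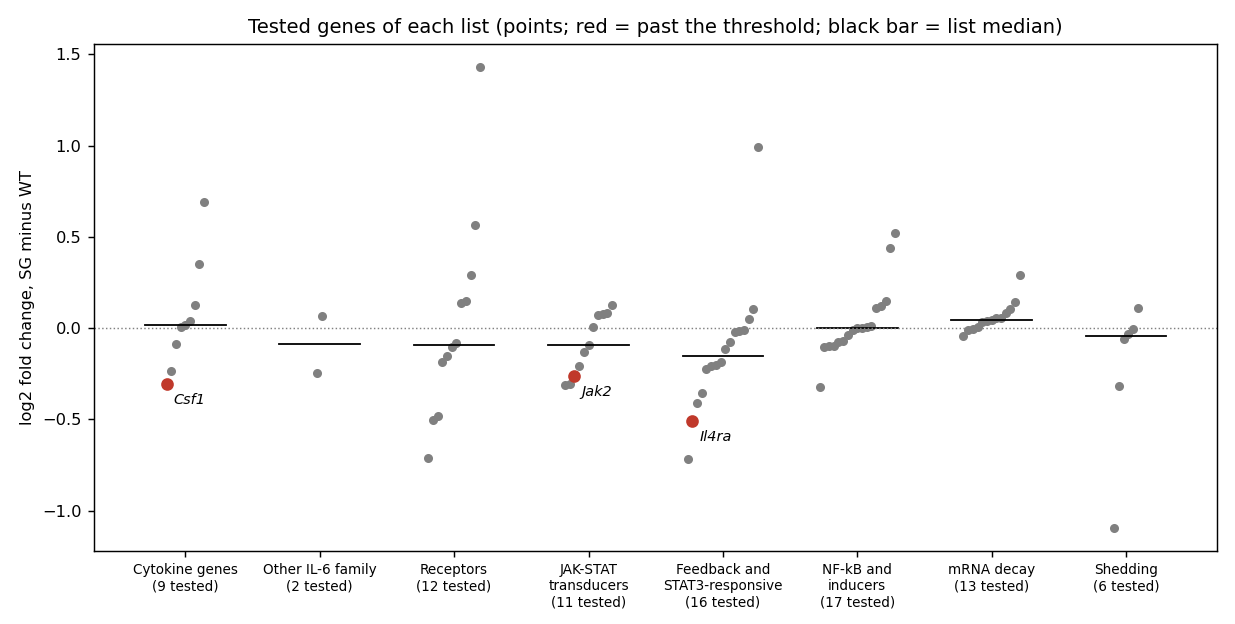
Log2 fold change (SG minus WT) of each tested gene in 8 lists, red where the threshold was passed, with the list median as a black bar. Csf1, Jak2 and Il4ra are the 3 red points, all below 0.

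No inducer or brake of these cytokines passed the threshold in the main edgeR fit. Of 20 genes of the NF-kB pathway and its inducers 17 were tested, with 0 calls in this fit and 4 at an unadjusted p below 0.05 (15.5% of all tested genes). DESeq2 gave 2 calls, Tlr4 and Tnfaip3, both higher in SG. Tlr4, the endotoxin receptor, was at 11.7, 12.6 and 13.2 CPM in the SG lines and 8.92, 10.3 and 8.33 CPM in the WT lines, without overlap (log2 fold change 0.44, SE 0.10, adjusted p = 0.0689). It passed in edgeR without a count filter, without WT9, and without SG1 and WT9. The inducing cytokines Il1a and Tnf had at most 0.188 CPM, and Il1b had no read in any line. Of 13 regulators of cytokine mRNA decay 0 passed in edgeR or DESeq2. An unadjusted p below 0.05 was reached by 2 of the 13, near the share of 15.5% among all tested genes. Arid5a, which protects Il6 mRNA, was at 12.8, 15.3 and 13.9 CPM in the SG lines and 10.3, 12.1 and 11.96 CPM in the WT lines, without overlap (log2 fold change 0.29, SE 0.09, adjusted p = 0.182). Zc3h12a, which encodes the RNase that degrades Il6 mRNA, had a log2 fold change of 0.04 (SE 0.10). Of 6 genes listed for the processing and shedding of CSF1 and stem cell factor, 0 passed in the main edgeR fit. In that fit 2 (Furin and Mmp9) were at an unadjusted p below 0.05 (15.5% of all tested genes), and Furin alone passed in DESeq2. Furin, a proprotein convertase, was at 194, 178 and 156 CPM in the SG lines and 199.6, 230.4 and 228 CPM in the WT lines, without overlap (log2 fold change -0.32, SE 0.09, adjusted p = 0.122), and passed in edgeR without a count filter. Mmp9, a secreted gelatinase, was at 9.26, 5.11 and 2.76 CPM in the SG lines and 9.10, 16.1 and 11.1 CPM in the WT lines, overlapping through SG1 and WT3 (log2 fold change -1.09, SE 0.40, adjusted p = 0.239). Mmp9 passed in edgeR without a count filter, with Xist as a covariate, without SG1, and without SG1 and WT9. Adam17, the main sheddase, had a log2 fold change of -0.03 (SE 0.04, 95% interval -0.12 to 0.06).

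Over the 7 pathway lists 76 of 91 genes were tested. Of these, 2 passed (2.63%, against 1.90% of all tested genes), and 17 did not overlap between genotypes (22.4%, against 21.2%), so both of these shares were near the background. The share at an unadjusted p below 0.05 was higher, at 22 of 76 (28.9%) against 15.5%. Because the lists were chosen with earlier results of these data known, this higher share is not independent evidence. None of the 10 cytokine genes lies on chromosome 1, which carries Mdm4. Lif, Csf2 and Csf3 share chromosome 11 with Trp53, at distances of 65.3, 15.3 and 29.1 Mb. Some pathway genes described above, among them Stat3, Stat5a, Stat5b and Socs3, also lie on chromosome 11. All 6 lines are p53-/-, but the DNA around Trp53 and Mdm4 was not compared between lines. Its part in the differences was not tested.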

How the data were processed

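Poly(A)-selected RNA of 6 lines was sequenced, 3 per genotype, with groups taken from the sample titles. The deposited values are raw counts of reads per Ensembl gene. The tools named per the submitters' processing notes are Trimmomatic 0.36, STAR 2.5.2b (build GRCm38), featureCounts of Subread 1.5.2 and DESeq2. For strand setting, multimapping and annotation release the sources used here give nothing. Of 49315 identifiers, 48970 matched a symbol in GENCODE M21, and 0 rows named no gene. Coordinates are those of the files.

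Counts were filtered with filterByExpr, scaled by TMM and tested with edgeR 4.0.16 (glmQLFit, glmQLFTest, 2-sided, no covariate) in R 4.3.3, with Benjamini-Hochberg adjustment over 16068 genes and a threshold of 0.05. SE is the log2 fold change over the square root of F. DESeq2 1.42.0 was an alternative, as were other scalings, filters, a robust prior, Xist as a covariate and leaving out lines. No 2 libraries of a genotype agreed within sampling noise (mean chi-square per gene 12.4 to 32.96 and median 1.68 to 3.25, where noise alone gives a mean of about 1). No batch was labelled, and no batch term was fitted.

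Named were the 10 members, pathway genes past the threshold, cognate receptors and the 3 nearest patterns to a called member. Other pathway genes with values (such as Stat3, Socs3, C3, Tlr4 and Arid5a) were chosen after their values were seen. Members and lists were chosen with earlier results of these data known.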

Additional observations from a re-analysis of the deposited data

How the results depend on the processing

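Over 15 alternatives, 109 of 132 estimates for the 9 tested members kept their direction and their side of the threshold. Csf1 passed in 7 of 15 and kept its direction in all 15, with adjusted p = 0.0743 without SG1 and WT9 and 0.0531 under a filter of at least 1 CPM in 3 libraries. Members past the threshold numbered 1 with all lines, 0 with RLE scaling, 0 under that filter and 0 to 2 when 1 line was left out. Kitl rather than Csf1 passed without SG1 and WT9. All genes past the threshold numbered 306, 959 without a count filter, 934 with DESeq2, 703 without SG1 and WT9 and 3 to 579 without 1 line. Pathway genes past the threshold numbered 2, 8 without a count filter, 8 with DESeq2, 4 without SG1 and WT9 and 0 to 3 without 1 line. Some estimates of uncalled members changed sign. Without 1 line, log2 fold changes ranged from -0.0373 to 0.0723 for Lif, -0.0299 to 0.1116 for Ctf1, -0.4658 to 0.1908 for Csf3 and -0.3244 to 0.2945 for Il34. Without SG1 and WT9 that of Ctf1 was -0.0518 and that of Csf3 0.0075. That of Il34 was -0.0025 with total counts only and -0.0627 with Xist as a covariate. The causes were not tested. No paired analysis was possible because the genotypes share only line number 3. A filter of at least 1 CPM left Il6, Csf3 and Il34 untested. Il6, Csf3, Il34 and Csf2 had at most 69 reads in a line, so counting error adds to the spread between lines.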
